A study of Zea mays with 30 samples.

Results

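The last sampled step of the fast-germinating maize inbred line 72-3 was examined here, from 12 to 24 h after imbibition (HAI), the time at which the line germinates in the study. It was represented by 6 libraries of the 30 in the series, namely the 3 libraries labelled 72-3 at 24 HAI and the 3 labelled 72-3 at 12 HAI, and these labels alone chose them. The slow-germinating inbred line F9721 was followed to 48 HAI with 6 sampling times and 72-3 with 4 of these (0, 6, 12 and 24 HAI), with 3 libraries for each group, where 0 HAI means dry seeds. In the germination tests of the study, seeds were sterilized with hydrogen peroxide, rinsed and imbibed in water, at the same temperature and light regime for both lines. Whether the dry seeds were sterilized is not stated, and no other treatment is described. At each time point 5 whole seeds were sampled, so a library holds RNA from embryo, endosperm and seed coat together. Each line is a single inbred genotype.

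A dry maize kernel carries messenger RNAs that were made during seed maturation and kept through desiccation, the stored mRNAs. When water enters, respiration and translation resume first on this stored material, then new transcripts accumulate while the stored ones are degraded, and germination in the strict sense ends when the radicle emerges. After that point the growing axis needs wall loosening, cell division and reserve mobilisation. The deposited identifiers carry no gene names, and only a list of 87 genes compiled in the study as candidates for a germination-speed locus comes with descriptions. The results are therefore given first for all genes and then for this list. For the same reason, the tissue could not be checked against marker genes.

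Between 9161046 and 13604455 reads per library were assigned to genes at 12 HAI, and between 10147128 and 14192708 at 24 HAI, with 26493 to 27685 genes detected by a read in each of the 6 libraries. The 3 libraries at 12 HAI had pairwise correlations of log2(CPM + 1) between 0.982 and 0.989. At 24 HAI replicate 1 stood apart from the rest. It correlated at 0.948 with replicate 2 and 0.921 with replicate 3, against 0.973 between replicates 2 and 3. It was also the 24 HAI library nearest to the 12 HAI seeds, with correlations of 0.902, 0.852 and 0.853 with their replicates 1 to 3. Replicate 1 at 12 HAI was in turn the 12 HAI library nearest to each library at 24 HAI. Over 22190 expressed genes, those whose mean log2 CPM was 0 or more, the median SD between replicates was 0.287 on the log2(CPM + 1) scale at 24 HAI. It was 0.176 at 12 HAI and 0.119 to 0.173 in the other 8 groups. The totals of DEGs, interaction calls, gained and lost genes and the largest overlaps with F9721 are given below with and without replicate 1 at 24 HAI. Where not stated, other counts below include this library and may depend on it.

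**Figure D1:**
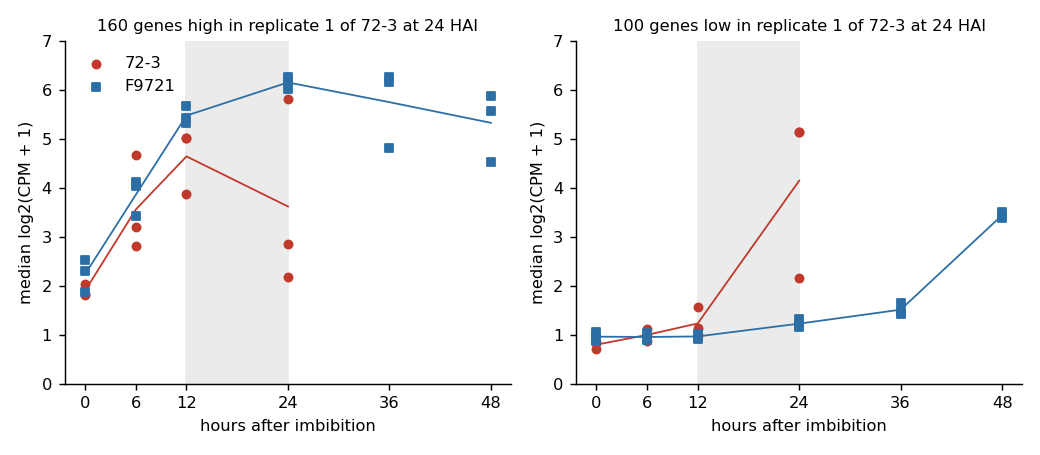
Median log2(CPM + 1) per library of the 160 genes for which replicate 1 of 72-3 at 24 HAI lies at least 2 above both other libraries (left) and the 100 genes for which it lies at least 2 below (right), against hours after imbibition, with lines through group means and the step shaded. The genes were chosen by this difference at 24 HAI. On the left replicate 1 stands at 5.83 and the other libraries of the time at 2.85 and 2.19, with 1 F9721 library low at 36 HAI and 1 at 48 HAI.

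The step from 12 to 24 HAI changed far more genes than any earlier step of 72-3. Of 34746 genes tested, 3528 were differentially expressed (DEGs, adjusted p of at most 0.01 in edgeR's quasi-likelihood test and a log2 fold change of 2 or more in either direction), which is 10.2% of the genes. Of these, 2016 rose (5.8% of the genes tested) and 1512 fell (4.35%). By comparison, 520 DEGs (1.5% of the genes) were found from 0 to 6 HAI and 524 (1.51%) from 6 to 12 HAI, nearly all of which rose, with 3 and 15 genes falling. The step is 12 h long and the earlier steps are shorter, so the counts compare steps and not rates. By the adjusted p alone, 11480 genes differed between 12 and 24 HAI (33%), 5977 of them higher (17.2%) and 5503 lower (15.8%) at 24 HAI. The libraries of the 2 groups did not overlap for 14907 genes (42.9%). The methods describe different ears as the source of the replicates of the germination test, but no label ties a library to an ear, so the p-values measure the spread between these libraries. In bulk seeds, fewer cells of a type and less RNA per cell cannot be told apart. Without replicate 1 at 24 HAI the count was 4054, with 2287 higher and 1767 lower.

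**Figure D2:**
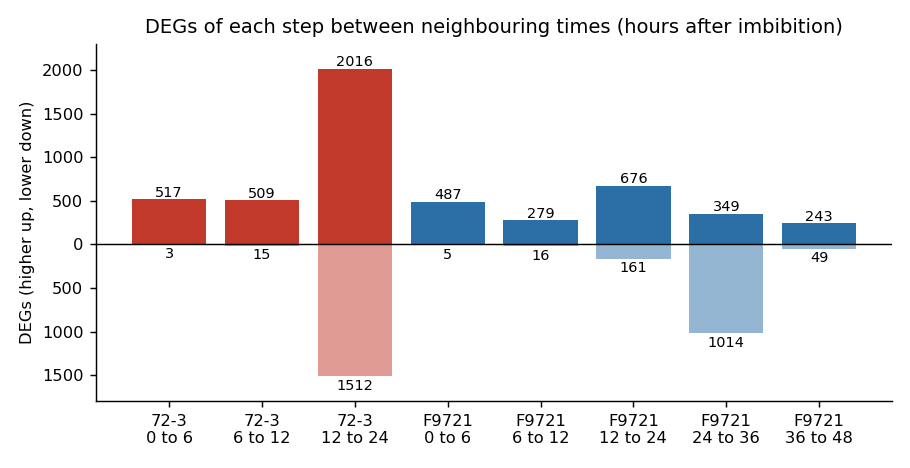
Number of DEGs in each step between neighbouring sampling times, with genes higher at the later time drawn upwards and genes lower at the later time drawn downwards (paler), for 72-3 in red and F9721 in blue. The 12 to 24 HAI step of 72-3 has 2016 genes above and 1512 below the line, and the next largest loss is that of F9721 at 24 to 36 HAI, with 1014 genes.

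Both directions involved large changes. The median fitted change of the DEGs that rose was 3.07 on the log2 scale (8.39-fold) and that of the DEGs that fell was -2.92 (7.58-fold). For 124 of the former and 74 of the latter every library of a group had 0 counts, and with these genes set to a bound of 3 counts per library the medians were 2.95 and -2.80. Changes of 4 or more on the log2 scale were reached by 557 genes that rose and 309 that fell. At 24 HAI, 782 of the genes that rose had a mean of at least 10 CPM (counts scaled to the library's total by the TMM method) and 12 had at least 1000 CPM. At 12 HAI, 742 of the genes that fell had at least 10 CPM and 27 had at least 1000 CPM.

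Of the 1512 genes that fell, 1184 had at least 10 counts in every dry-seed library of 72-3 (78.3%), and 1252 had them at 12 HAI (82.8%). A gene must be well above 0 at 12 HAI to be called as falling, so this share describes the genes and is not set against that of all genes. When the times before 24 HAI were compared, the level of 850 was highest at 0 HAI (56.2%), of 493 at 6 HAI (32.6%) and of 169 at 12 HAI (11.2%). Over all expressed genes these shares were 38.2%, 15.7% and 45.2%. Together these genes took 28.6% to 29.9% of the counts in dry seeds of 72-3 and 27.6% to 29.8% at 6 HAI. At 12 HAI the share was 14.6% in replicate 1, 18.9% in replicate 2 and 19.4% in replicate 3, and at 24 HAI it was 2.57%, 1.97% and 1.2%. The shares at 12 and 24 HAI follow from how the genes were called. The levels at 0 and 6 HAI did not set the fold changes, although those libraries entered the shared estimate of the spread. In the deposited TPM values, which count per length, the same genes held 51.7% to 53.0% of the transcripts of the dry seeds and 2.12% to 4.84% at 24 HAI.

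The genes that rose had low counts before 24 HAI. At 12 HAI this follows from the call, and at the earlier times it is a description. At most 3 counts in every library were found for 1113 of the 2016 at 0 HAI (55.2%, all genes tested: 35.7%). The number was 912 at 6 HAI (45.2%, all genes tested: 32.6%) and 504 at 12 HAI (25%, all genes tested: 29.1%). Their median level moved from 0.217 CPM in dry seeds to 0.299 CPM at 6 HAI, 0.577 CPM at 12 HAI and 6.05 CPM at the end of the step. As a share of the counts they held 0.338% to 0.347% in dry seeds. At 12 HAI they held 1.75%, 1.07% and 0.898% in replicates 1 to 3, and at 24 HAI 6.18%, 9.81% and 10.6%. Replicate 1 was thus the highest of the 12 HAI libraries and replicate 1 the lowest of the 24 HAI libraries, and the same order held in reverse for the genes that fell.

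**Figure D3:**
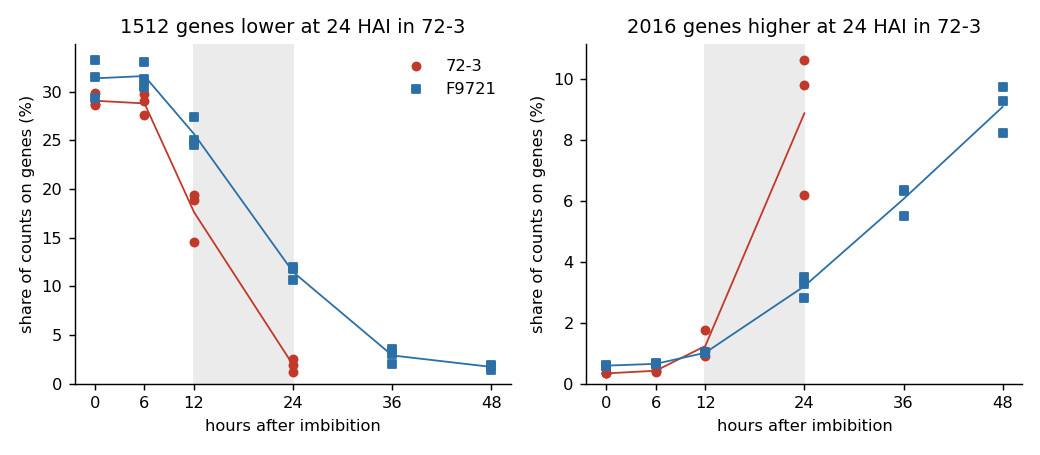
Share of the counts on genes (%) taken by the 1512 genes lower (left) and the 2016 genes higher (right) at 24 than at 12 HAI in 72-3, for every library (points) of 72-3 (red circles) and F9721 (blue squares) against hours after imbibition, with lines through group means and the step shaded. The left share runs from 28.6% to 29.9% in dry 72-3 seeds to 1.2% to 2.57% at 24 HAI, a range that F9721 enters at 36 to 48 HAI.

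A part of the change was a switch between no detection and detection. Counting genes with at most 3 counts in every library of one time and at least 10 in every library of the other, 202 genes were gained and 70 were lost from 12 to 24 HAI. The gained genes had a median of 33 counts at 24 HAI, and 186 of them were also at the limit in dry seeds (all genes tested: 35.7%). In F9721, 14 of the 202 had 10 counts or more in every library at 12 HAI, and this number grew to 25, 72 and 109 at the 3 later times. Among all genes tested the share detected in this way was nearly level over the 4 times, at 57.5%, 58.2%, 56.2% and 57.3%. Of the 70 lost genes, 50 had at least 10 counts in every dry-seed library of 72-3 (all genes tested: 51.3%). In F9721 42 of them were detected at 12 HAI, 30 at 24 HAI and 3 at 36 HAI. A gene counted as lost was below the limit that these depths can show and may still be expressed. Because the criterion sets both lists by their level at 12 HAI, these counts are descriptions. Leaving out replicate 1 at 24 HAI raised the counts to 379 and 149, and leaving out replicate 1 at 12 HAI raised the gained genes to 398.

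The composition of the libraries shifted in the same step. The 100 most abundant genes took 19.5%, 20.7% and 22.2% of the counts at 12 HAI and 18.6%, 16.0% and 15.4% at 24 HAI. The means were 20.8% ± 1.37 and 16.7% ± 1.71 (SD, n = 3), the groups did not overlap, and the exact permutation test (two-sided) gave p = 0.10, the smallest that 3 against 3 libraries allow. Reads outside annotated genes made up 11.8% ± 1.11 of the tallied reads at 12 HAI and 6.96% ± 1.25 at 24 HAI (SD, n = 3), again without overlap and with exact permutation p = 0.10. The part of this shift in the changes of single genes was not tested.

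Next, the same interval was compared between the lines. From 12 to 24 HAI F9721 had 837 DEGs (2.41% of the genes), 676 higher and 161 lower. The interaction of line and step, which tests whether the change differs between the lines, called 1180 genes (3.4%), of which 557 changed more positively (1.6%) and 623 more negatively (1.79%) in 72-3. Among the DEGs of 72-3, the interaction was called for 423 of the 2016 that rose and 494 of the 1512 that fell. Most of the 1632 genes that rose past the threshold in 72-3 but not in F9721 were not shown to differ between the lines, since 403 of them passed the interaction test. Of the 1432 corresponding genes that fell, 481 passed it. The interaction uses the same 72-3 libraries that called these DEGs, so the interaction counts among them are descriptions. Without replicate 1 of 72-3 at 24 HAI the interaction called 1904 genes, 887 more positive and 1017 more negative in 72-3.

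When the steps of F9721 are read in order, both directions of the 72-3 step were spread differently over its intervals. The genes that rose in 72-3 had a median log2 fold change of 1.09 in F9721 from 12 to 24 HAI, 0.91 from 24 to 36 HAI and 0.72 from 36 to 48 HAI, and were thus spread over all 3 steps. The genes that fell had medians of -1.04, -1.77 and -0.35, with the largest in the step from 24 to 36 HAI. The medians over all expressed genes were 0, -0.02 and -0.02. When replicate 1 of 72-3 at 24 HAI was left out, the DEGs that rose had medians of 0.89, 0.80 and 0.72 in the 3 steps. Those that fell then had -0.89, -1.58 and -0.36. These medians describe lists chosen by the fold changes between 72-3 libraries. The F9721 libraries took part in the scaling and in the estimate of the spread behind the p-values. The step of F9721 from 24 to 36 HAI also varied with gene length, with a median over all genes of -0.50 in the shortest and 0.24 in the longest of 5 equal classes of expressed genes, and the genes that fell in 72-3 were short. Within the 5 classes, from shortest to longest, the medians of the genes that fell were -2.38, -1.75, -1.51, -1.45 and -1.34 in that step. They lay 1.5 to 1.89 below the median of all genes of the class, against 1.04 to 1.10 from 12 to 24 HAI and 0.29 to 0.50 from 36 to 48 HAI. The course of the genes that rose also varied with length. Their medians in the 3 steps were 1.54, 0.68 and 0.98 in the shortest class and 0.86, 1.18 and 0.43 in the longest. Measured from the median of all genes of the class, they were 1.54, 1.17 and 0.93 in the shortest and 0.93, 0.94 and 0.53 in the longest.

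**Figure D4:**
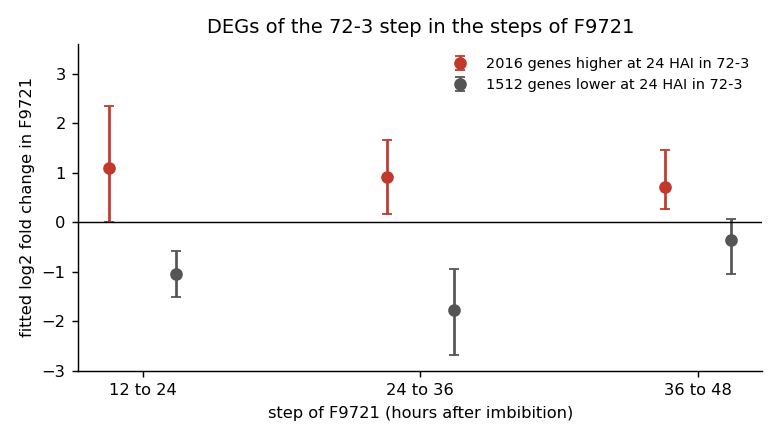
Fitted log2 fold change in the 3 later steps of F9721 of the 2016 genes that rose (red) and the 1512 genes that fell (grey) from 12 to 24 HAI in 72-3. Points are medians over genes and bars run from the first to the third quartile, and the lowest grey median is -1.77 at 24 to 36 HAI.

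Shared DEGs are given as counts and as shares of each list, because the lists differ in length. Of the genes that rose in 72-3, 380 also rose in F9721 from 12 to 24 HAI, 18.8% of the 72-3 list and 56.2% of the F9721 list, the latter holding 1.95% of all genes. From 24 to 36 HAI 246 were shared (12.2% and 70.5%, F9721 list 1% of the genes), and from 36 to 48 HAI 132 (6.55% and 54.3%, F9721 list 0.699%). Of the genes that fell, 79 were shared with F9721 from 12 to 24 HAI (5.22% and 49.1%, F9721 list 0.463%). From 24 to 36 HAI 583 were shared, 38.6% of the 72-3 list and 57.5% of the F9721 list, which held 2.92% of all genes. From 36 to 48 HAI 37 were shared (2.45% and 75.5%, F9721 list 0.141%). In the 3 steps 5, 3 and 9 DEGs moved in opposite directions in the 2 lines. Without replicate 1 at 24 HAI the 2 largest overlaps were 369 and 589 genes.

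Over the 22190 expressed genes, the changes of the 72-3 step correlated with those of F9721 at r = 0.57 from 12 to 24 HAI, 0.63 from 24 to 36 HAI and 0.46 from 36 to 48 HAI. These are correlations across genes, which are not independent, and the fits share one estimate of the spread. The order of the first 2 was turned by Spearman's rank correlation, with 0.57 and 0.55. As another description, each library was placed on the line that runs from dry seeds (0%) to 48 HAI (100%) in F9721, measured from the dry seeds of its own line. At 12 HAI the 72-3 libraries stood at 42.8%, 32% and 31.7%, and at 24 HAI at 81.4%, 82.5% and 81.3%. F9721 itself stood at 27.9% to 29.5% at 12 HAI, 56.0% to 61.1% at 24 HAI and 87.5% to 89.0% at 36 HAI. Replicate 1 at 24 HAI did not stand apart on this line.

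The 4 genes chosen by the smallest p show how large the change was in single libraries, although the files give them no name. Zm00001d029366 had 2404, 2846 and 2230 counts in replicates 1 to 3 at 12 HAI and 47, 35 and 35 at 24 HAI. All the 24 HAI libraries were thus far below those of 12 HAI, with a log2 fold change of -6.23 (SE 0.20, adjusted p = 9.86e-20 in edgeR's quasi-likelihood test). In F9721 its mean was 49.4 CPM at 12 HAI, and 19.9 and 3.82 CPM at the next times. Zm00001d023700 had 2102, 2158 and 2051 counts at 12 HAI and 36, 26 and 21 at 24 HAI. Its log2 fold change was -6.49 (SE 0.26, edgeR adjusted p = 1.53e-17), and in F9721 the mean was 70.7 CPM at 12 HAI, 28.5 CPM at 24 HAI and 0.664 CPM at 36 HAI.

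The 2 genes that rose showed the opposite course. Zm00001d041606 had 17, 10 and 4 counts at 12 HAI and 449, 394 and 494 at 24 HAI (log2 fold change 5.24, SE 0.25, edgeR adjusted p = 4.57e-16). In F9721 it stood at 3.95 CPM at 24 HAI and 21.4 CPM at 36 HAI. Zm00001d049190 had 32, 12 and 6 counts at 12 HAI and 1181, 1449 and 2243 at 24 HAI, with a log2 fold change of 6.45 (SE 0.32, edgeR adjusted p = 5.32e-16). In F9721 its mean rose from 1.52 CPM at 12 HAI to 8.15 and then 47.1 CPM over the next steps. The libraries of the 2 times were widely separated for both genes.

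The candidate list was then examined. It holds 87 genes, of which 82 had reads and were tested, and 9 were DEGs of the 72-3 step, 8 higher and 1 lower at 24 HAI. That share is 11% of the list against 10.2% of all genes tested, and 30 list genes (36.6%) passed the adjusted p alone against 33% of all genes. The libraries of the 2 times did not overlap for 37 (45.1%, against 42.9%). The median log2 fold change of the list was 0, as it was over all genes. The list as a whole was therefore close to the background. The groups taken up below hold 4 to 30 tested genes each, so their counts are descriptions, and no group was tested as a set. The study compiled it around a mapped locus, and it is described here because its genes carry descriptions.

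Among the 7 tested genes of transcription and signalling, 2 were DEGs (all genes tested: 10.2%) and both rose. They are rolled leaf 1 and rolled leaf 2, related maize transcription factors of the class III homeodomain leucine zipper family, which specify the upper side of the leaf. Rolled leaf 2 (Zm00001d027317) had 68, 49 and 27 counts at 12 HAI and 282, 434 and 676 at 24 HAI, or 3.73 ± 0.887 and 32.96 ± 14.4 CPM (SD, n = 3). Its log2 fold change was 3.12 (SE 0.26, edgeR adjusted p = 3.90e-11), and replicate 1 was the lowest of the 24 HAI libraries. Rolled leaf 1 (Zm00001d048527) had 123, 110 and 56 counts at 12 HAI and 377, 488 and 669 at 24 HAI, a change of 2.25 (SE 0.22, edgeR adjusted p = 7.82e-10), again with replicate 1 lowest. Reads that fit both of these related genes may be left uncounted, by an amount that is not known. In F9721 both rose over the whole course, rolled leaf 2 from 1.44 CPM at 12 HAI to 4.45, 11.3 and 20.7 CPM at 24, 36 and 48 HAI and rolled leaf 1 from 3.99 to 11.9, 25.3 and 39.8 CPM. The interaction was not called for either gene. It was 1.51 (SE 0.40) for rolled leaf 2, past the adjusted p alone (edgeR adjusted p = 0.0073), and 0.67 (SE 0.31) for rolled leaf 1.

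Scarecrow-like protein 6 (Zm00001d027292), a GRAS family regulator, passed the adjusted p but not the fold threshold. It had 3.79, 4.35 and 2.23 CPM at 12 HAI and 8.24, 15.8 and 10.6 CPM at 24 HAI, a log2 fold change of 1.72. The mediator subunit 12-like gene (Zm00001d027299), part of the kinase module of the Mediator complex, changed by -0.69 on the log2 scale, past the adjusted p alone. Its replicate 1 at 24 HAI, with 68.1 CPM, lay just below the lowest 12 HAI library at 68.6 CPM.

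Of the 6 tested genes of the cell wall and transport group, 3 passed the adjusted p (all genes tested: 33%). All 3 were higher at 24 HAI, and 1 of them was a DEG (all genes tested: 10.2%). This was xyloglucan endotransglucosylase/hydrolase protein 5 (Zm00001d027368), of a family that cuts and rejoins xyloglucan in growing walls. It had 12, 6 and 6 counts at 12 HAI and 82, 93 and 59 at 24 HAI, or 0.63 ± 0.15 and 5.57 ± 1.86 CPM (SD, n = 3). The log2 fold change was 3.10 (SE 0.49, edgeR adjusted p = 3.90e-06). It also rose in F9721 from 12 to 24 HAI, by 2.68, and the interaction was not called (0.42, SE 0.76). The molybdate-anion transporter (Zm00001d027344), which takes up molybdate for the molybdenum cofactor, had 17.5, 14.6 and 10.5 CPM at 12 HAI and 40.1, 40.8 and 51.3 at 24 HAI. Its change of 1.62 (SE 0.15) was small beside the threshold but even between libraries. Early nodulin-like protein 1 (Zm00001d027346), of a family of cell-surface proteins related to plastocyanins, changed by 1.72 (SE 0.51). The plasma membrane ATPase 9 gene (Zm00001d027304), a proton pump, had 0.979, 0.492 and 0.912 CPM at 12 HAI and 2.29, 2.05 and 1.09 at 24 HAI, and it did not pass (1.17, edgeR adjusted p = 0.019).

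Of the 8 tested genes of metabolism, 4 passed the adjusted p (all genes tested: 33%), and 2 of these were DEGs (all genes tested: 10.2%). Of the DEGs 1 rose and 1 fell, and the 2 other genes were lower by the adjusted p alone. The nonspecific lipid-transfer protein gene (Zm00001d027332), of a family of small secreted proteins that bind lipids, had 13, 4 and 6 counts at 12 HAI and 81, 51 and 40 at 24 HAI. Its level went from 0.595 ± 0.261 to 3.97 ± 1.17 CPM (SD, n = 3), a log2 fold change of 2.69 (SE 0.46, edgeR adjusted p = 1.57e-05). In F9721 it was at 6.67 CPM at 12 HAI and 4.40 CPM at 24 HAI, a change of -0.60 that did not pass (edgeR adjusted p = 0.28), and the interaction was 3.29 (SE 0.60, edgeR adjusted p = 0.00016). At 24 HAI the mean of 72-3 lay within the range of the F9721 libraries, which was 3.4 to 6.00 CPM.

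The one list gene that fell past both thresholds was the protein-ribulosamine 3-kinase (Zm00001d027369), an enzyme of a family that phosphorylates sugars attached to glycated proteins. It had 118, 90 and 106 counts at 12 HAI and 6, 10 and 7 at 24 HAI, or 8.61 ± 1.86 and 0.555 ± 0.234 CPM (SD, n = 3). The log2 fold change was -3.96 (SE 0.28, edgeR adjusted p = 1.14e-12). In F9721 it fell by 1.54 on the log2 scale in the same interval (edgeR adjusted p = 2.93e-06) and further in the next, with 13 CPM at 12 HAI and then 4.47 and 0.532 CPM, and the interaction was -2.43 (SE 0.36, edgeR adjusted p = 1.26e-05).

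The riboflavin biosynthesis gene ribD (Zm00001d027367), of vitamin B2 synthesis, had 5.68, 6.15 and 8.51 CPM at 12 HAI and 3.22, 2.79 and 4.0 CPM at 24 HAI, a change of -1.0 (SE 0.17) past the adjusted p alone. The gene described as retinol dehydrogenase 12 (Zm00001d027353), a short-chain dehydrogenase, had 52.9, 54.8 and 59.3 CPM at 12 HAI. At 24 HAI it had 45.5 CPM in replicate 1, 17.4 in replicate 2 and 9.97 in replicate 3, so the value of replicate 1 was near those of 12 HAI. Its change was -1.19 (SE 0.36), and without that library it was -2.03 and past both thresholds. Hydrolase protein 32 (Zm00001d027313) had 5.61, 4.35 and 6.39 CPM at 12 HAI and 7.18, 4.18 and 1.83 CPM at 24 HAI, and the libraries overlapped. Malic enzyme 1 (Zm00001d011289) and malic enzyme 2 (Zm00001d012623), which convert malate to pyruvate, had 0 counts in all 6 libraries. They also had 0 counts in every library of 72-3 at 0 and 6 HAI, so this was not a change of the step. F9721 had 11.2 and 2.0 CPM of them at 12 HAI and counts of both in every library. A count of 0 allows up to 0.186 to 0.304 CPM in the 6 libraries of 12 and 24 HAI, taken as 3 counts and covering counting error only.

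**Figure D5:**
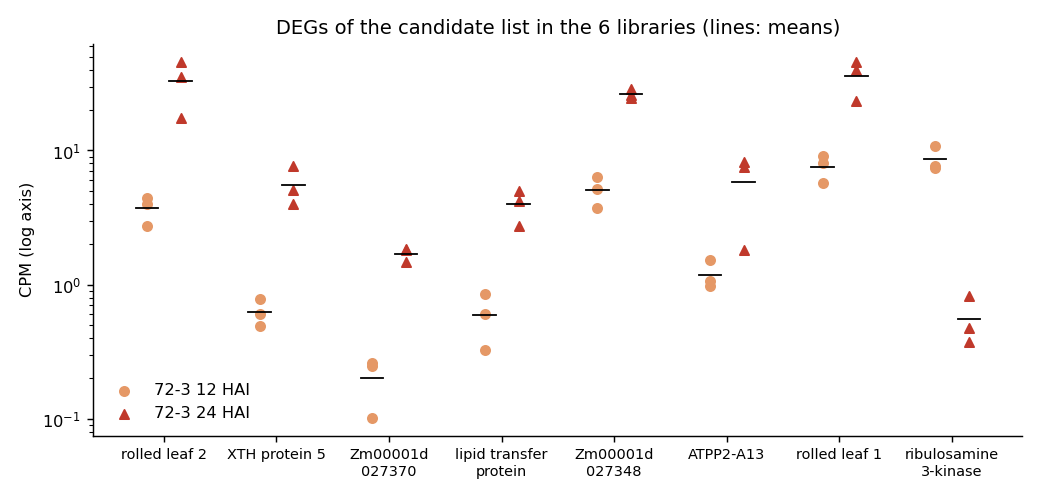
CPM on a log axis of 8 DEGs of the candidate list in the 3 libraries of 72-3 at 12 HAI (orange circles) and the 3 at 24 HAI (red triangles), with bars at the means, ordered by log2 fold change. The groups are apart for every gene shown, and ATPP2-A13 has 1 library at 24 HAI, with 1.80 CPM, close to the 12 HAI libraries at 0.979 to 1.52 CPM.

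In the ubiquitin group of 5 tested genes, ATPP2-A13 (Zm00001d027361), named after an Arabidopsis phloem protein 2-like F-box protein, was the only DEG (all genes tested: 10.2%). It had 15, 13 and 15 counts at 12 HAI and 29, 100 and 111 at 24 HAI, with a log2 fold change of 2.30 (SE 0.46, edgeR adjusted p = 0.00013). Replicate 1 at 24 HAI was again the low one, and without replicate 2 the change was 1.98, below the fold threshold. The COP9 signalosome subunit 1 gene (Zm00001d048502), part of a complex that regulates ubiquitin ligases, had 7.05, 5.49 and 5.47 CPM at 12 HAI and 7.80, 5.82 and 4.82 CPM at 24 HAI, with overlapping libraries.

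None of the 11 tested genes of organelles and protein handling passed the adjusted p (all genes tested: 33%). Their log2 fold changes ran from -0.80 to 0.47 with a median of -0.07. One of them is PEX11-1 (Zm00001d027366), of a family that acts in peroxisome division, with 3.79, 3.36 and 4.76 CPM at 12 HAI and 2.91, 2.87 and 5.43 CPM at 24 HAI. The counts overlapped. In F9721 it was lower at 24 than at 12 HAI, with 18.4 and 8.87 CPM.

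Of 6 tested genes for cytoskeleton, chromosomes and chromatin, beta tubulin1 (Zm00001d027295), a microtubule subunit, passed the adjusted p alone (all genes tested: 33%). It had 125.1, 126.9 and 117.4 CPM at 12 HAI and 164.4, 231.4 and 352.9 CPM at 24 HAI, a change of 1.02 (SE 0.17) without overlap. Cingulin (Zm00001d027307) changed by -0.34 (SE 0.14) and did not pass, and PAIR1 (Zm00001d027300), named after a rice gene needed for pairing of chromosomes in meiosis, stayed at 9 to 13 counts in all 6 libraries. Of the 4 tested genes of RNA handling, the pentatricopeptide repeat gene (Zm00001d027349), of a family that acts on organelle transcripts, passed the adjusted p alone (all genes tested: 33%). It changed by -0.75 (SE 0.17). The RNA binding protein gene (Zm00001d027339) changed by -0.37 (edgeR adjusted p = 0.041) and did not pass.

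Among 5 other annotated genes, the DUF3527 domain gene (Zm00001d027296) passed the adjusted p alone (all genes tested: 33%). It had 2.81, 2.38 and 2.03 CPM at 12 HAI and 5.26, 5.82 and 7.53 CPM at 24 HAI, a change of 1.35 (SE 0.26). The LysM domain gene (Zm00001d027325), of a domain that binds chitin-like sugars and peptidoglycan, had 19.0, 12.1 and 9.50 CPM at 24 HAI against 9.43 to 12.97 at 12 HAI, with overlap.

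The 30 tested list genes without description held 3 DEGs (10%, all genes tested: 10.2%), all higher at 24 HAI. Zm00001d027348 had 79, 78 and 37 counts at 12 HAI and 421, 349 and 365 at 24 HAI (log2 fold change 2.36, SE 0.40, edgeR adjusted p = 1.40e-05), and the 24 HAI libraries were close to each other. Zm00001d027370 had 4, 3 and 1 counts at 12 HAI and 29, 18 and 27 at 24 HAI, and its fold rests on few counts. Zm00001d027330 had 0 counts in every library at 12 HAI and 10, 20 and 14 at 24 HAI, at least 4.30-fold higher when 3 counts per library are taken as the floor at 12 HAI. In F9721 it had 0 counts in every library up to 36 HAI and 11 to 28 counts at 48 HAI. DESeq2 did not call this gene, with an adjusted p of 0.45.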

How the data were processed

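Whole germinating maize seeds of 72-3 and F9721 were profiled by paired-end RNA-seq, and groups were taken from the sample titles. Trimming by the authors used fastp, alignment HISAT2 against B73 RefGen_v4, and counting HTSeq (union mode). The deposited counts are not normalized. TPM was calculated in R by the authors and deposited as a second table. Tool versions, gene lengths and strand setting are not given in the sources used here, so overlapping and antisense genes are uncertain. Reads overlapping several genes (1.71% to 1.93% here) were not assigned to a gene. Those with several placements were tallied as 0 in every library, so their share is not known. Leaving out either kind may undercount near-identical copies. The 2 tables list 39005 genes, of which 4259 without reads were left out. Reads tallied to no gene (5.70% to 13.1% here) stayed out of library sizes.

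Counts were analysed with edgeR 4.0.16 in R 4.3.3, using TMM scaling, 10 group means over 30 libraries, the quasi-likelihood test and Benjamini-Hochberg adjustment over 34746 genes. A gene was a DEG where the adjusted p did not exceed 0.01 and the log2 fold change was 2 or more in either direction. SEs were derived from the test statistic. The scripts were tested on simulated data. Alternatives were DESeq2 1.42.0, its size factors, filterByExpr, the replicate number as a block, total counts, fewer libraries, other thresholds and each library left out.

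Genes were named by rule: list genes that were DEGs; up to 4 others per functional group with an adjusted p of at most 0.05 (a limit set after the values were seen); list genes the study put forward; and the 2 per direction with the smallest p and no overlap. The rule's further genes of the interaction by identifier were left out, since unnamed identifiers were kept to 2 per direction. The members, lists and rules were chosen with earlier results of these data known. None of the 39005 identifiers matched the reference table given, so no names, positions or sequences were added.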

Additional observations from a re-analysis of the deposited data

Results flagged for a closer look

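The change from 12 to 24 HAI differed between 72-3 and F9721, by the interaction test in edgeR, for 6 of the genes named above. The differences are given on the log2 scale as 72-3 minus F9721. They were 3.94 for Zm00001d041606 and 4.05 for Zm00001d049190, which rose more in 72-3, and -4.92 for Zm00001d029366 and -5.18 for Zm00001d023700, which fell more in 72-3. The 4 genes were chosen for their change in 72-3, so the direction of the difference is partly set by that choice. Among the list genes the difference was 3.29 for the nonspecific lipid-transfer protein (Zm00001d027332) and -2.43 for the protein-ribulosamine 3-kinase (Zm00001d027369). Both are DEGs of the 72-3 step and are named here under that rule, so the same limit holds for them. Each of the 6 was called in all 15 alternatives tried for it. No group of more than 3 libraries exists, so no library was tested as an outlier within its group.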

How the results depend on the processing

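The 3528 DEGs of the step ranged from 2982 with the 6 libraries alone to 3569 with total counts as the scaling over the alternatives of tool, scaling, filter and libraries, and from 3082 to 4054 with a library left out. No DEG changed direction in any of them, and 2483 were called in every leave-one-out fit, 1379 of them higher at 24 HAI. The counts higher and lower ran from 1697 to 2287 and from 1301 to 1767 with a library left out. The share of DEGs that rose ran from 54.4% to 60.4%. The deviations of same-numbered libraries from their group means correlated at -0.01, 0.02 and -0.13, and no library correlated best with its own number. With 3 libraries a group these deviations depend on each other, so they cannot show whether same-numbered libraries share an ear. With the replicate number as a block there were 3373 DEGs.

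With an absolute log2 fold change of 1 as the limit there were 7639 DEGs (4185 higher, 3454 lower), 2895 for the interaction and 19 in the candidate list. The other steps then had 880 (72-3, 0 to 6 HAI), 2162 (72-3, 6 to 12 HAI), 925, 933, 2844, 3515 and 736 (F9721, in order of time). An adjusted p of 0.001 left 173 for F9721 from 6 to 12 HAI and 150 from 36 to 48 HAI. With a library left out the interaction ran from 921 to 1904, the candidate list from 8 to 11, and the earlier 72-3 steps from 275 to 609 and from 273 to 757. The F9721 steps ran from 390 to 523, 195 to 261, 673 to 874, 1081 to 1479 and 183 to 292. The low ends came without replicate 2 at 6 HAI and without replicate 1 at 12 HAI in 72-3, and without replicate 1 at 6 HAI and replicate 2 at 36 HAI in F9721. Without replicate 1 at 6 HAI the 72-3 step from 6 to 12 HAI had 323.

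Gained and lost genes depended on the limit. They were 27 and 2 with 0 counts as the limit, 678 and 347 with 10, and 95 and 22 when 20 counts were asked of a detected gene. They ran from 210 to 398 and from 74 to 149 with a library left out, where fewer libraries have to meet the criterion. The correlation with F9721 from 24 to 36 HAI was 0.55 by ranks and 0.68 for genes with a mean log2 CPM of 2 or more, and that with 36 to 48 HAI 0.42 by ranks. With a library left out the 3 correlations ran from 0.51 to 0.60, 0.60 to 0.64 and 0.42 to 0.48. The difference in the share of the 100 most abundant genes was -4.13 points, -12.3 in the TPM values and -5.11 to -3.43 with a library left out, and that of reads outside genes ran from -5.43 to -4.17. Of 30 genes named here and tested, 17 kept their direction and their call under every alternative. Changes near 0 turned sign. PEX11-1 (Zm00001d027366) had 0.018 with total counts as the scaling and -0.45 to 0.090 with a library left out, hydrolase 32 (Zm00001d027313) -0.87 to 0.072, the LysM gene (Zm00001d027325) -0.073 to 0.46 and COP9 subunit 1 (Zm00001d048502) -0.18 to 0.18. Where not stated, the cause was not tested.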

Other observations

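The genes that set replicate 1 apart at 24 HAI were listed after its values were seen, as expressed genes whose log2(CPM + 1) differed by at least 2 from both other 24 HAI libraries in the same direction. The library was higher for 160 genes and lower for 100. Among the other 72-3 libraries the largest such list was 81 genes, higher in replicate 2 at 6 HAI. The 160 genes had a median log2(CPM + 1) of 5.83 in replicate 1 and of 2.85 and 2.19 in replicates 2 and 3 at 24 HAI, whereas at 12 HAI the medians were 5.03, 3.88 and 5.03. In F9721 at 24 HAI their medians were 6.03 to 6.26. The 100 genes had a median of 2.17 in replicate 1 and 5.15 and 5.14 in the others, and 86 of them were DEGs that rose. Of the 160, 152 were not DEGs with all libraries, and 87 were DEGs that fell when replicate 1 was left out. These counts and the 86 follow in part from how the genes were listed. Over all genes tested, 5.8% were DEGs that rose with all libraries, and 1767 of 34746 were DEGs that fell without replicate 1.

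F9721 also has libraries that stood apart, but almost only downwards. Replicate 3 at 36 HAI had 308 genes below both other libraries and 1 above, and replicate 3 at 48 HAI had 253 below and 0 above. Of the 160 genes, 37 were among the 308 (23.1% of the former and 12.0% of the latter, which hold 1.39% of the expressed genes) and 27 among the 253 (16.9% and 10.7%, with 1.14% of the expressed genes). The 2 F9721 lists shared 201 genes. One gene of the candidate list, Zm00001d027338, chosen after its values were seen, belongs to the 160. It had 421, 106 and 302 counts at 12 HAI and 916, 19 and 17 at 24 HAI, and in F9721 1069, 1510 and 94 counts at 36 HAI and 792, 964 and 75 at 48 HAI. The labels give no difference between these replicates.

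The DEGs were shorter than other genes. A relative gene length was taken from the ratio of the deposited counts to the deposited TPM values, which agreed between libraries with a median CV of 1.71%, and was set to 1 at the median of the expressed genes. The median was 0.731 for the genes that rose and 0.515 for those that fell, over expressed genes. With the expressed genes in 5 equal classes of length, 12.6% of the shortest class fell and 9.82% rose, and 2.32% of the longest fell and 3.61% rose. The median change of all genes was near 0 in each class, from -0.05 to 0.07 on the log2 scale, whereas from 24 to 36 HAI in F9721 it ran from -0.50 in the shortest to 0.24 in the longest. The part of length in the calls was not tested.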
